A study of Mus musculus with 4 samples.

Results

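The stromal niche of the intestine was described here through 9 genes for secreted BMP, Wnt and R-spondin factors, their inhibitors and a marker receptor of niche fibroblasts: Grem1, Rspo1, Rspo3, Wnt2b, Wnt5a, Bmp4, Bmp5, Pdgfra and Sfrp1. Members were the probes whose RefSeq accession belongs to one of these symbols, which gave 9 of 20886 named genes and 10 of the 39429 non-control probes, 1 for each gene and 2 for Bmp4. Total RNA came from the ileum of male C57BL/6J mice, 10 weeks old, of which 2 samples were from mice dosed by mouth with metformin at 1000 mg/kg and 2 were from controls. Metformin is a glucose-lowering biguanide. The labels name no vehicle for the controls, no length of treatment and no animal for any sample, so the error within a group may be partly technical.

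Epithelial stem cells at the base of intestinal crypts depend on signals from mesenchymal cells beneath them. Wnt ligands and R-spondins sustain the stem cells, R-spondins by keeping Wnt receptors at the cell surface, whereas BMP ligands promote differentiation along the villus. Gremlin 1 binds BMPs near the crypt base and so protects the stem cell zone, and fibroblasts with high PDGFRA below the villus and crypt-villus border are a known source of BMPs and of Wnt5a.

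RNA of smooth muscle markers and of ileal bile acid genes differed between the samples. Values are log2 signals minus the 75th percentile of the same array, so 0 is the 75th percentile. Of the 8 measured smooth muscle markers, all had a lower mean with metformin, but their median, relative to each gene's control mean, was -3.59 in metformin 1, -2.53 in metformin 2, 2.30 in control 1 and -2.30 in control 2: control 1 stood apart. Metformin 1 stood apart in Fabp6, the ileal bile acid binding protein, which read 4.16 in metformin 1 and 8.70 in metformin 2, against 8.94 in control 1 and 8.29 in control 2. Slc10a2, the ileal bile acid uptake transporter, read -0.89 and 4.93 with metformin, against 4.46 and 3.28 in controls. Epithelial markers were bright on all arrays, with a summed level (the log2 of the list's mean signal) of 7.10 and 7.05 with metformin, against 6.91 and 6.71 in controls. Between 65.1% and 69.1% of probes were well above background on an array. Metformin samples lay at slide positions 3 and 4 and controls at 1 and 2, so position and treatment cannot be told apart.

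The promoters of Grem1, Bmp4, Bmp5 and Pdgfra are shown so that their different base composition can be seen. They are RefSeq windows of build GRCm38.p6, 250 bases before to 50 after the annotated start, written 5' to 3' on the gene's strand. Capitals mark matches, on either strand, to the GC box GGGCGG, the BMP SMAD element GGCGCC, the CCAAT box CCAAT and the A form of a forkhead motif, TATTTAC; no 2 matches in these windows overlap.
Grem1 promoter, chr2:113758599-113758898, minus strand: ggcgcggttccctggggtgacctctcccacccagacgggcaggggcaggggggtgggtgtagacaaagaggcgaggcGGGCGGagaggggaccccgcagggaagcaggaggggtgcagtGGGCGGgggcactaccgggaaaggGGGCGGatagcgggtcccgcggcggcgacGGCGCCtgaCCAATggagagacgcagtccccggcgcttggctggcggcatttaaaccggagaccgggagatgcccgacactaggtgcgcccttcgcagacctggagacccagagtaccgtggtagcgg
Bmp4 promoter, chr14:46390620-46390919, minus strand: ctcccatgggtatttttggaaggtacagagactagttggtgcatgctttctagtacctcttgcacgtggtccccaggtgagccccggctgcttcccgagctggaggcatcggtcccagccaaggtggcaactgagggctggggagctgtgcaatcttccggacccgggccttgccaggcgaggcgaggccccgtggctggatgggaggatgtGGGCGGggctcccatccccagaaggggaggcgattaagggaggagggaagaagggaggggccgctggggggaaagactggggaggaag
Bmp5 promoter, chr9:75775115-75775414, plus strand: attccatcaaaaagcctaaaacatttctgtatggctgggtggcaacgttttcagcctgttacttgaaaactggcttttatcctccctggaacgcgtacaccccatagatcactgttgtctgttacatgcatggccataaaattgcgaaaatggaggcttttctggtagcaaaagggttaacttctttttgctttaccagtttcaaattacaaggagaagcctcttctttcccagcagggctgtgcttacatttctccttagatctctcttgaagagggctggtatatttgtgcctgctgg
Pdgfra promoter, chr5:75152001-75152300, plus strand: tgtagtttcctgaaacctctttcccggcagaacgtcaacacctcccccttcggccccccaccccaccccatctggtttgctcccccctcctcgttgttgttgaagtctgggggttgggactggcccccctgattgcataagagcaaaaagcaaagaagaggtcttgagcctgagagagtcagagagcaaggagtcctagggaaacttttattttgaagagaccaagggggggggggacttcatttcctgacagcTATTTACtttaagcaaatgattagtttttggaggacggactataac

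Windows were given for 6 of the 9 genes, but not for Rspo3, Wnt5a and Sfrp1. The Grem1 window had 70.67% G and C, more than 91.42% of the 32851 promoters, and held 3 GC boxes, 1 SMAD element and 1 CCAAT box. The Bmp4 window had 64% G and C and 1 GC box. The Pdgfra window had 51% G and C and 1 TATTTAC, which starts at base 5 after the start site, and the Bmp5 window, with 43.33% G and C, held none of the 8 motifs searched. Over all 32851 promoters, 35.66% hold GGGCGG, 11.87% GGCGCC, 37.41% CCAAT and 3.04% TATTTAC. The SMAD element was also in the windows of Rspo1 (1 match, 69% G and C) and Wnt2b (2 matches, 79.67% G and C). The forkhead motif TGTTTAC is in 3.65% of promoters. The GLI motif GACCACCCA is in 0.253%. The TCF/LEF motif CTTTGA is in 16%, and the TATA motif, written TATAAA, is in 13.62%. None of these was in the 4 windows shown. These letters are descriptions of the windows and not sites.

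Of the 9 genes, 7 could be tested, and the means of all 7 were lower with metformin than in controls. Over all 21648 genes and transcripts the median difference was 0.06, so a higher mean was the commoner result. Counts of lower or higher means in the lists below are to be read beside that. None of the 7 passed limma's test after Benjamini-Hochberg adjustment over 21648 genes and transcripts (adjusted p = 0.9996 for each). Neither did any other gene, so the background of calls is 0%. Unadjusted limma p-values under 0.05 numbered 76 higher and 271 lower genes of the 21648. Together that is a smaller share than the 0.05 expected if no gene differed. At least 2-fold lower with both metformin samples below both controls were Bmp4, Bmp5, Pdgfra and Rspo3, 4 of 7, against 2.31% of all genes. The same 4 are those without overlap at any size, against 8.46% of all genes. No niche gene was higher without overlap, against 12.5% of all genes at any size and 0.633% at 2-fold or more.

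How the 4 genes entered the test matters for that count. Testing required a signal well above background in both samples of metformin or of control, and Rspo3 and Bmp5 met this in the controls alone. Among genes well above background on all 4 arrays, 2 of 5 niche genes, Bmp4 and Pdgfra, were 2-fold lower without overlap, against 1.9% of 20206 genes. With normexp background correction of the median spot signal the count was 0 of 7, and with the deposited table, which holds that median signal uncorrected, it was 1 of 7 after scaling. Without metformin 2 it was 2 of 7. In RNA from pieces of tissue, fewer cells of a type and less RNA per cell cannot be told apart.

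**Figure D1:**
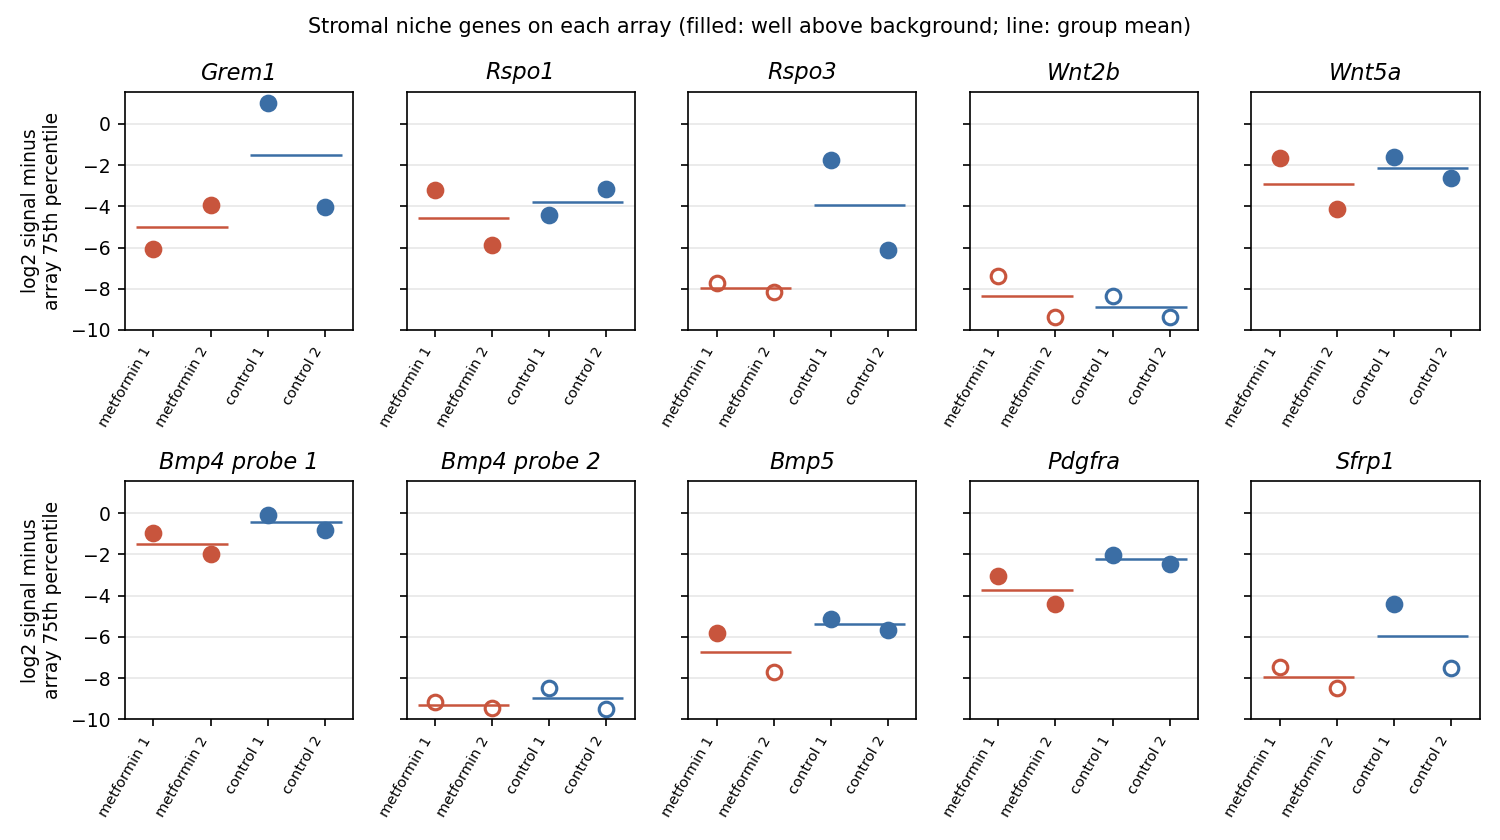
Each panel gives 1 probe, with the 4 arrays on the x axis and log2 signal minus the array's 75th percentile on the y axis; filled points were well above background, open points were not, and lines are group means of 2 arrays. Bmp4 probe 1, Bmp5, Pdgfra and Rspo3 show no overlap between metformin and control. Control 1 is far above the other arrays in Grem1, Rspo3 and Sfrp1, and is also highest, by less, in Bmp4, Bmp5, Pdgfra and Wnt5a.

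Grem1, the secreted BMP antagonist of the crypt base, had the widest range, and 1 control decided it. It read -6.06 and -3.95 in metformin 1 and 2, against 1.02 and -4.05 in control 1 and 2, and was well above background on all 4 arrays. The metformin and control values overlapped: control 2 lay just below metformin 2. The log2 difference was -3.49 (SE 1.87, adjusted p = 0.9996), with means of -5.00 ± 1.49 with metformin and -1.52 ± 3.59 in controls (SD, n = 2 each). Without control 1 it was -0.95, without control 2 it was -6.02, and with normexp it was -2.20. Differences lower than that of Grem1 were found in 0.0785% of genes, and the median gene differed by 0.06.

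Smooth muscle markers moved with Grem1. The contractile actin Actg2 read -1.91 and -0.37 with metformin, against 4.84 and -0.17 in controls. The muscle list of 8 genes had a median difference of -3.12, with 6 of the 8 lower without overlap (8.46% of all genes), and of -0.56 without control 1. The muscle list's summed level was -0.28 and -0.17 with metformin, against 4.10 and 0.04 in controls. The part of muscle content in the Grem1 difference was not tested.

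Bmp4, a BMP ligand made by fibroblasts of the villus core, was well above background on all 4 arrays at 1 of its 2 probes, with signals of 436 and 272 with metformin, against 857 and 831 in controls. On the scaled log2 axis it read -0.99 and -1.97 in metformin 1 and 2, against -0.09 and -0.81 in control 1 and 2. Both metformin samples lay below both controls, but metformin 1 lay only 0.18 below control 2. The difference was -1.03 (SE 0.49, unadjusted p = 0.097, adjusted p = 0.9996 by limma), which is 2.04-fold lower. It was -0.54 without metformin 2 and -0.67 without control 1, both under 2-fold, and -0.89 with normexp. The second Bmp4 probe was not well above background on any array, with signals between 1.49 and 2.55, and gives no level.

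Bmp5, a second BMP ligand of the mesenchyme, was dim. It read -5.80 and -7.69 with metformin, against -5.13 and -5.66 in controls, and metformin 2 was not well above background. Its processed signals were 15.5 and 5.17 with metformin, against 26.1 and 28.7 in controls. The difference was -1.35 (SE 0.71, adjusted p = 0.9996 by limma), and its size is uncertain because of the array near background. It was -0.41 without metformin 2, under 2-fold, against -2.29 without metformin 1, and -0.07 with normexp. Metformin 1 was 0.14 below control 2, so that the separation of the groups rests on a gap that small.

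Pdgfra, the PDGF receptor that marks fibroblasts and the subepithelial telocytes, was measured with 10 spots on each array. It read -3.07 and -4.42 with metformin, against -2.01 and -2.49 in controls, and was well above background throughout. The SD between its 10 spots, which is technical error within an array, was 0.09 and 0.11 on the metformin arrays, against 0.05 and 0.07 on the control arrays. The groups did not overlap, but the gap of 0.58 between metformin 1 and control 2 was smaller than the SD of 0.95 between the metformin samples. The difference was -1.50 (SE 0.55, unadjusted p = 0.048, adjusted p = 0.9996 by limma), 2.82-fold lower. Leaving out each sample in turn gave differences between -0.82, without metformin 2, and -2.17, without metformin 1. With normexp it was -0.90, below 2-fold.

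Fibroblast markers were lower in the same samples. All 10 listed fibroblast genes had both metformin values below both controls, 9 of them by at least 2-fold, against 8.46% and 2.31% of all genes, and the median difference was -2.08, larger in size than those of Bmp4, Bmp5 and Pdgfra. Relative to the control mean the fibroblast list's median was -1.60 and -2.65 with metformin, against 0.77 and -0.77 in controls. The list's summed level was -0.05 and -0.82 with metformin, against 2.03 and 0.96 in controls. Without control 1 the median difference was -1.38. The examples given by the naming rule were the collagen chain Col1a1, with a difference of -2.18 (SE 0.71), the proteoglycan Lum at -3.29 (SE 1.31) and fibronectin, Fn1, at -2.12 (SE 0.68). The intermediate filament gene Vim, which many non-epithelial cells express and which was named outside that rule, differed by only -0.38 (SE 0.30). The part of fibroblast content in the values of Bmp4, Bmp5 and Pdgfra was not tested.

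**Figure D2:**
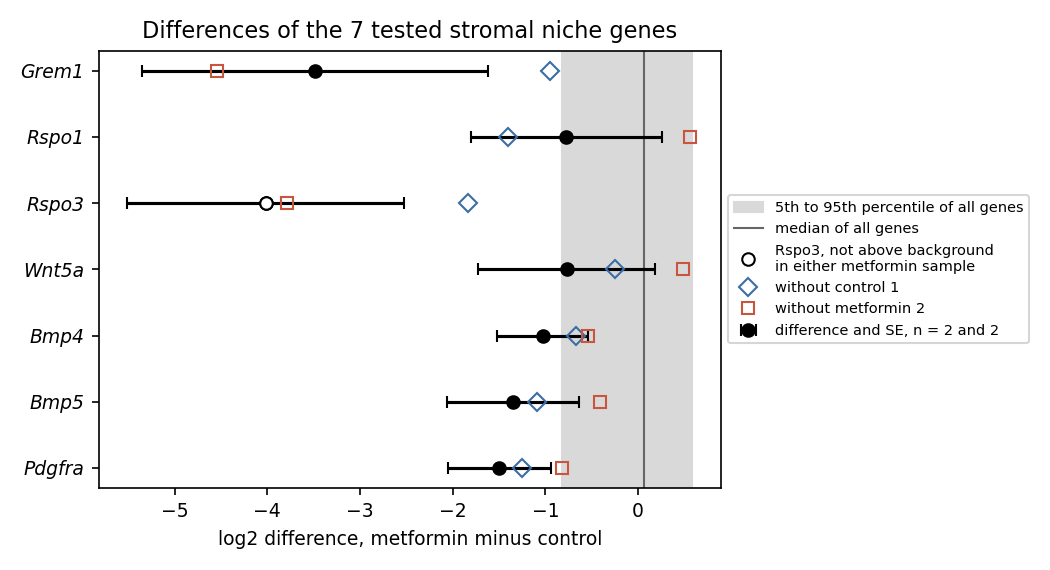
The x axis is the log2 difference, metformin minus control, for the 7 tested genes, with bars of 1 SE; the grey band holds the 5th to 95th percentile of all genes, -0.82 to 0.59. Grem1 and Rspo3 move most when control 1 is left out (diamonds), and Rspo1 and Wnt5a pass to the other side of 0 when metformin 2 is left out (squares).

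The R-spondins, ligands of the LGR receptors, did not show 1 pattern. Rspo3, the R-spondin produced by crypt-base stroma and lymphatic endothelium, was not well above background in either metformin sample, with signals of 4.11 and 3.69, against 271 and 21.1 in controls. Its scaled values were -7.72 and -8.18 with metformin, against -1.75 and -6.11 in controls, and the groups did not overlap. By processed signal it was at least 9.78-fold lower with metformin (adjusted p = 0.9996 by limma, from readings that include the ones near background). That bound sets the controls against the lowest signal well above background on each metformin array. It was at least 44.2-fold against control 1 alone and at least 2.16-fold against control 2 alone. The size depends on the signal used: the log2 difference was -0.97 with normexp and -1.59 with the scaled deposited table.

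Rspo1 was detected on all 4 arrays and had its lowest value in metformin 2. It read -3.22 and -5.90 in metformin 1 and 2, against -4.41 and -3.15 in control 1 and 2. The metformin values lay on both sides of control 1, so the groups overlapped. The difference of -0.77 (SE 1.03, adjusted p = 0.9996 by limma) was smaller than the SD between the metformin samples, 1.89. Without metformin 2 it was 0.56.

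Of the Wnt ligands, Wnt5a, which signals mostly without beta-catenin and is made by subepithelial telocytes, also had its lowest value in metformin 2. It read -1.64 and -4.15 with metformin, against -1.60 and -2.64 in controls. Metformin 1 was within 0.03 of control 1 and 1.01 above control 2, so the groups overlapped. The difference was -0.77 (SE 0.95, adjusted p = 0.9996 by limma), smaller than the SD of 1.78 between metformin samples, and 0.49 without metformin 2.

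Wnt2b, a canonical Wnt ligand of the crypt stroma, was not well above background on any array. Its signals were 5.27 and 1.63 with metformin, against 2.78 and 2.20 in controls, and it was not tested. Sfrp1, a secreted inhibitor that binds Wnt ligands, was well above background in control 1 only, with signals of 4.96 and 2.97 with metformin, against 43.3 and 7.82 in controls. Its signal was at least 7.05-fold lower with metformin than in control 1, the only array that measured it. No fold is given against control 2, since all 3 other arrays were not well above background, and Sfrp1 was not tested.

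By the order of the arrays, the 7 tested genes were grouped after their values were seen. The distance used is the root of the summed squared differences over 4 arrays between log2 values centred on each gene's mean. Bmp4 and Pdgfra, both well above background throughout, were 0.56 apart. Bmp5 lay 0.41 from Pdgfra and 0.73 from Bmp4, distances that include its reading in metformin 2, which was not well above background. In these 3 genes the order was metformin 2, metformin 1, control 2 and control 1, from lowest to highest. Grem1 and Rspo3 shared the high control 1, while Grem1 and Rspo1 were 6.23 apart. Rspo1 and Wnt5a had their lowest value in metformin 2 and overlapped between the groups, and lay 1.63 apart; Wnt5a was nearer to Bmp5, at 0.82.

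**Figure D3:**
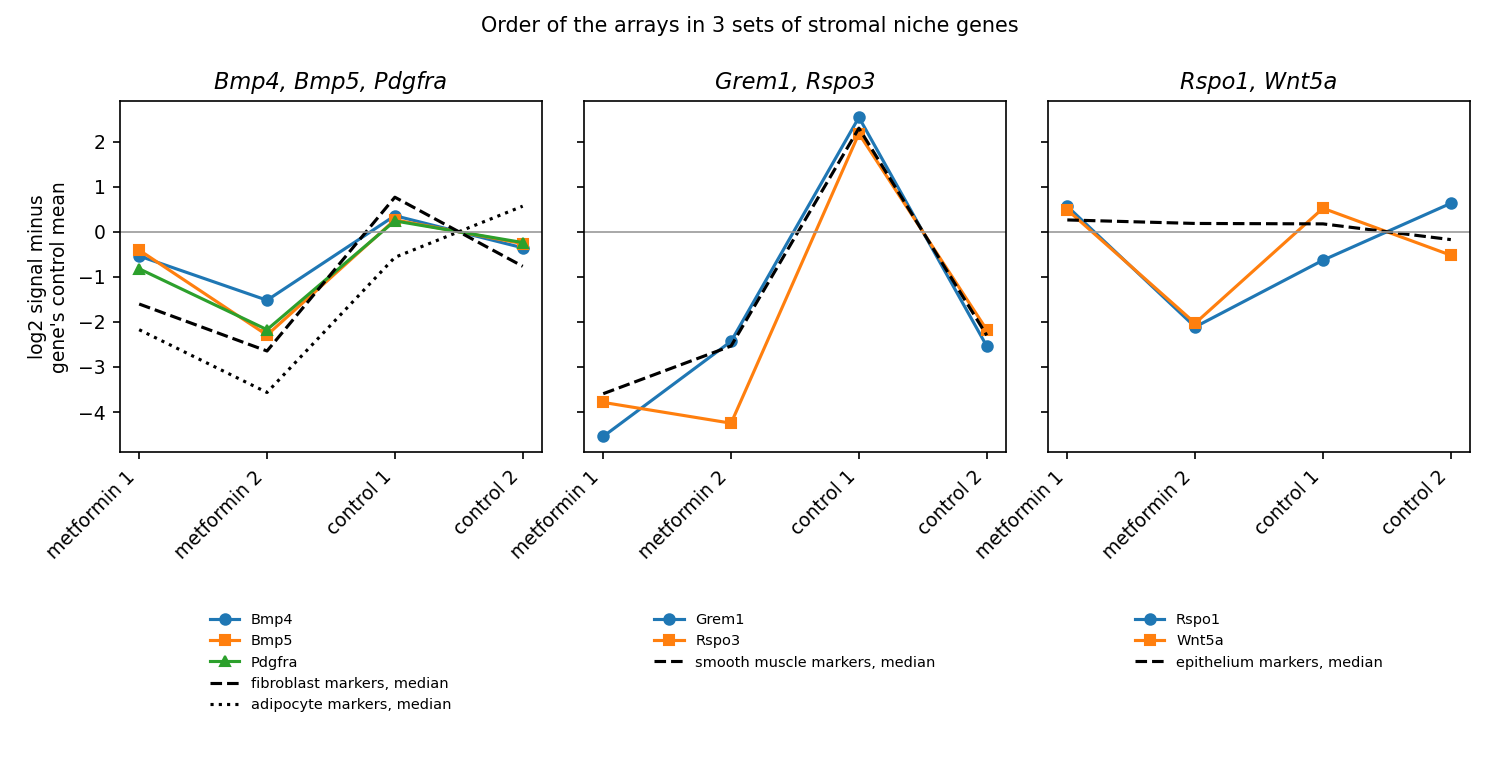
The y axis gives log2 values relative to the control mean of each gene and the x axis the 4 arrays; the lines only join the points of 1 gene, and black lines are medians of marker lists. Bmp4, Bmp5 and Pdgfra have the same order of arrays as the fibroblast markers. Grem1 and Rspo3 peak with the smooth muscle markers in control 1. The fibroblast median was also highest there, at 0.77, against -0.77 in control 2. Rspo3 was not well above background in either metformin sample. Rspo1 and Wnt5a are lowest in metformin 2.

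Among genes well above background on all arrays, members and those with no symbol or a clone, Gm or Rik name were left out, which gave 13869. In these, the 3 genes with the smallest distance to each of the 7 were sought. For Pdgfra they were Col6a2, Col6a1 and Col14a1, chains of collagens VI and XIV, at 0.15, 0.17 and 0.27. For Bmp4 they were Thsd1, Stard8 and Gypc, at 0.05, 0.12 and 0.12, and for Bmp5, with the same limit, Mymx, Rarres2 and Efemp1, at 0.12, 0.16 and 0.29. Colec10, the muscle actin Actg2 and Rgs5, a gene known from pericytes and muscle, were nearest to Grem1, at 0.26, 0.41 and 0.68. Igfbp6 was the nearest to Rspo1 at 0.41, followed by Slc36a2 and Col6a4 at 0.78 and 0.91. Kcnj13, St3gal5 and Fam117a were nearest to Wnt5a, at 0.48 to 0.51. For Rspo3, whose metformin readings were near background, the distances have no exact meaning. By the same rule Slc2a4, Ogn and Lum were listed for it, at 1.02 to 1.05.

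Other genes of the BMP pathway did not share 1 direction, and 0 passed the adjusted test in either direction in any of the pathway lists. All 4 other measured BMP ligands had lower means, by little (median difference -0.28, or -0.75 without metformin 2), among them Bmp7 at -0.77 (SE 0.61), Bmp6 at -0.35 (SE 0.28) and Bmp3 at -0.20 (SE 0.70). Of 8 antagonists and modulators, 6 had lower means and 3 were at least 2-fold lower without overlap, against 2.31% of all genes. Their median of -0.10 was -0.92 without metformin 2 and -0.54 without control 2. The secreted follistatin-like protein Fstl1 differed by -2.10 (SE 0.61), the BMP-binding protein Bmper by -1.75 (SE 0.74) and chordin, Chrd, by 0.20 (SE 0.28).

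BMP receptors and SMADs, the transducers of the signal, had higher means in 4 of 6 genes (median 0.27, or 0.04 without metformin 1 and 0.13 without control 2), with Acvr1 at 0.39 (SE 0.29), Smad4 at 0.38 (SE 0.34) and Bmpr1a at 0.28 (SE 0.38). BMP response genes were split, 5 with higher and 3 with lower means (median 0.17). Id1, a direct target of BMP SMADs, read 4.32 and 4.90 with metformin, against 4.24 and 4.07 in controls, a difference of 0.46 (SE 0.34). The inhibitory Smad6 differed by 0.77 (SE 0.77), and Id4 by -1.15 (SE 0.60). Without metformin 1 the median of the response genes was -0.13, and without control 2 it was -0.07, both of the other sign.

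In the Wnt pathway, 7 of 8 other ligand and secretion genes had lower means (median -0.70), 3 of them without overlap, against 8.46% of all genes. The Wnt transport protein Wls differed by -0.92 (SE 0.88), Wnt11 by -0.90 (SE 0.43) and Wnt5b by -0.84 (SE 0.47). Without control 1 the median was -0.29. Of the other secreted inhibitors 4 were measured, 2 with lower means (median -0.40, or -0.15 without control 1): Dkk3 differed by -1.71 (SE 0.66), Sfrp5 by -0.90 (SE 0.43) and the epithelial Wnt deacylase Notum by 0.47 (SE 0.38). Among the 14 measured Wnt receptors 11 had lower means (median -0.12), with Fzd2 at -2.05 (SE 0.75), the Wnt5a receptor Ror2 at -1.10 (SE 0.80) and Fzd9 at -0.91 (SE 0.75). The receptors' median was 0.07, of the other sign, without control 1.

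The receiving side of the R-spondin signal was measured through 4 genes (median -0.32, or -0.18 without metformin 1 and -0.55 without metformin 2). Lgr5, the R-spondin receptor of stem cells, differed by -0.97 (SE 0.57), the ubiquitin ligase Znrf3, which removes Wnt receptors, by -0.67 (SE 0.40) and Lgr4 by 0.04 (SE 0.32). Rspo2 and Rspo4 were not tested, as they were not well above background on both arrays of a group. Wnt target genes of the epithelium had lower means in 8 of 11 (median -0.21), led by Nkd1 at -1.98 (SE 0.86), Ascl2 at -1.08 (SE 0.64) and Ccnd1 at -0.85 (SE 0.48). Their median was 0.06 without metformin 1 and 0.07 without control 2, so its direction rests on those samples.

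PDGF ligands and the second receptor had a median of -0.24, with Pdgfrb, the receptor of pericytes and fibroblasts, at -0.79 (SE 0.47), Pdgfb at -0.37 (SE 0.30) and the epithelial ligand Pdgfa at 0.31 (SE 0.43). Without control 1 that median was 0.20, of the other sign. Among 14 genes of niche cells, 10 had lower means, 6 without overlap and 4 of these at least 2-fold lower, against 8.46% and 2.31% of all genes. Their median of -0.37 was -0.84 without metformin 2 and -0.67 without control 1. Their largest differences were in the hedgehog effector Gli1, at -1.86 (SE 0.65), and the forkhead factors of gut mesenchyme Foxf2 and Foxf1, at -1.82 (SE 0.83) and -1.72 (SE 0.51). Foxl1, the forkhead factor that defines telocytes and was singled out after its values were seen, read -5.87 and -6.15 with metformin, against -5.59 and -5.33 in controls, a difference of -0.55 (SE 0.30).

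**Figure D4:**
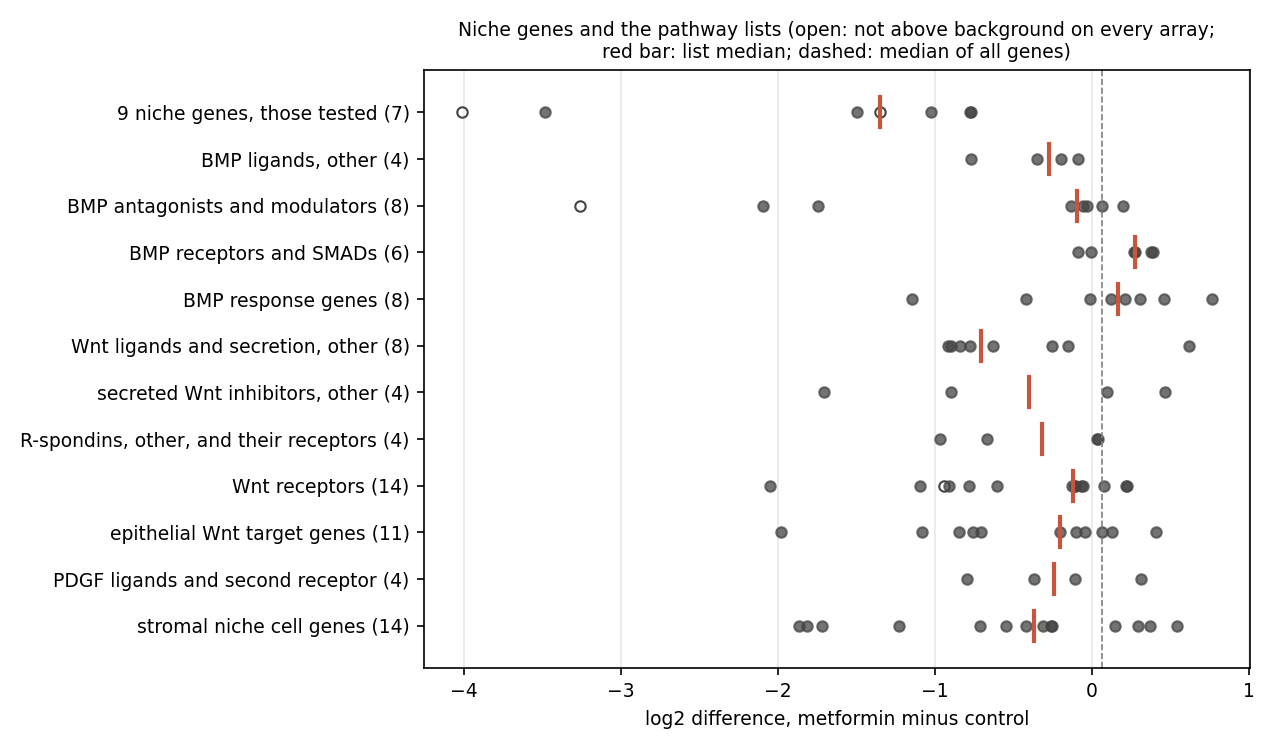
Each point is 1 gene, placed by its log2 difference, metformin minus control, with the number of measured genes in brackets; open points were not well above background on every array and red bars are medians. The 7 tested niche genes have a median of -1.35 (-0.54 without metformin 2), against -0.70 to 0.27 in the 11 pathway lists and 0.06 over all genes. The fibroblast, smooth muscle and adipocyte lists, which are not drawn, had medians of -2.08, -3.12 and -2.87.

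The remaining cell types were measured with the same lists of markers. Adipocyte genes had a median difference of -2.87, with 5 of 6 at least 2-fold lower without overlap (2.31% of all genes). The 5 include Plin1, which was not well above background in metformin 2 and was tested through the controls alone. Median values of the list relative to the control mean were -2.17 and -3.56 with metformin, against -0.57 and 0.57 in controls. The list's low point, like that of Bmp4, Bmp5 and Pdgfra, was metformin 2. Endothelial markers had a median of -0.53 (4 of 7 with lower means), neuron and glia markers of -0.59 (5 of 6), leukocyte markers of 0.45 (5 of 5 with higher means) and epithelial markers of 0.21 (9 of 10 with higher means). At least 2-fold lower without overlap were 3 of 7 endothelial and 2 of 6 neuron and glia markers, against 2.31% of all genes. The latter include Vip, which was not well above background in metformin 1. In these 2 lists 0 genes were higher without overlap. Without control 1 the neuron and glia median was -0.01, and without control 2 it was -1.32. The endothelial median was -0.18 without metformin 1, -0.20 without control 2, -0.93 without metformin 2 and -0.92 without control 1. The leukocyte median was -0.08 without metformin 1 and 1.08 without metformin 2, and the epithelial median was 0.09 without control 2 and 0.36 without control 1. Of 5 mesothelium markers, Msln alone was measured, at -2.27 and -3.69 with metformin, against -4.18 and -2.12 in controls.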

How the data were processed

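Ileal RNA, labelled with Cy3 per the labels, was hybridised to 4 single-colour arrays on 1 slide read in 1 scan. The scanner files hold spot intensity values made with Agilent Feature Extraction 10.7.3.1, per the file headers, with statistics of background subtraction and of spatial and multiplicative detrending in the same headers; no scaling between arrays is recorded there. The deposited series table, called normalized, was equal to the raw median spot intensity for all 39030 probes with 1 spot, and was used only as an alternative.

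From the log2 of the processed signal, each array's 75th percentile over non-control probes was subtracted here. Outlier spots were left out, spots of a probe averaged and 47 probes without a usable spot dropped. Accessions without versions were matched to the RefSeq gene table of GRCm38.p6, which named 27508 of 39429 probes. Probes well above background on both arrays of a group were kept, and the brightest probe stood for a gene, which gave 21648 genes and transcripts. Levels of different probes were not compared. The array design names build mm9, so its coordinates were not used.

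The comparison used limma 3.58.1 (lmFit, then eBayes) under R 4.3.3, with two-sided p-values and Benjamini-Hochberg adjustment over all genes. The fit was tested on simulated data. An exact permutation test of 2 against 2 samples cannot go below p = 0.333, so none was run. Named genes were all members, the 3 nearest genes of each, and up to 3 genes per list with the largest difference among those above background on all arrays. Vim and Foxl1 were named outside this rule, as were genes mentioned only as not tested or not well above background. The members and lists were chosen with earlier results of these data known. Alternatives changed the background correction, scaling, filter, probe choice, table and samples. The number of arrays limits the precision.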

Additional observations from a re-analysis of the deposited data

How the results depend on the processing

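With 2 samples a group the test can pass few genes, and dim probes limit Bmp5, Rspo3, Sfrp1 and Wnt2b. Limma called 0 genes under all 16 alternatives, the smallest adjusted p being 0.082, without metformin 2. The planned mean spot signal is not a column of the files, so normexp was run on the median signal, a choice made after seeing the data.

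The count of niche genes at least 2-fold lower without overlap, 4 of 7, was 0 with normexp, 1 with the deposited table after scaling and 2 with genes above background on all 4 arrays, where 5 were tested. Leaving out 1 sample gave 2 to 6, with 2 without metformin 2. Of 110 differences of single niche genes under an alternative, 108 kept their direction and did not pass. Part of this agreement was fixed in advance. The eBayes trend, the replicate block, both changes of filter and the mean of kept probes leave each niche gene's difference as it is. Rspo1 and Wnt5a turned to 0.56 and 0.49 without metformin 2, and over the 4 omissions ranged from -2.11 and -2.03 to those values.

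Genes 2-fold changed without overlap numbered 137 higher and 499 lower in all. They were 13 and 116 with normexp, 22 and 198 with the scaled and 10 and 451 with the unscaled deposited table, 211 and 412 with median scaling, 41 and 384 with genes above background on all arrays, and 318 and 811 without a filter. Omitting 1 sample gave 354 to 1540 higher and 850 to 1776 lower. The median of all genes, 0.06, was 0.19 with median scaling and -0.17 in the unscaled table, and the niche genes' median was -1.22 and -1.21 there. That median, -1.35, was -0.89 with normexp and -0.95 with the scaled deposited table, and ranged from -2.17 without metformin 1 to -0.54 without metformin 2. Apart from what construction shows (fewer genes or samples), the cause was not tested.

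Same-numbered samples deviated together across genes (r = 0.563), but the labels do not say that a number marks a shared animal or day. With the replicate block the count of calls stayed at 0 (smallest adjusted p = 0.631) and the niche count at 4. The differences themselves do not change in this design.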
